A study of Homo sapiens with 3 samples.

Results

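The 10 genes described here encode selenoproteins, proteins that carry the amino acid selenocysteine. They were chosen by symbol, as the rows named 15-Sep, GPX1, GPX4, TXNRD1, SEPHS2, SEPW1, SEPN1, SELT, SELK and SELM among the 57820 genes of each table, and the rule uses no measured value. The row 15-Sep is SEP15, a symbol that had been turned into a date. In the RefSeq gene table SEP15 is a synonym of SELENOF, and SEPW1, SEPN1, SELT, SELK and SELM are synonyms of SELENOW, SELENON, SELENOT, SELENOK and SELENOM. The other 15 of the 25 human selenoprotein genes were found in the tables as well and serve as the nearest comparison.

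The study asked which RNAs are bound by MEX3A, an RNA-binding protein with KH domains. In ACHN, a human renal cell carcinoma line, MEX3A-Flag was stably overexpressed, complexes were fixed with 0.3% formaldehyde and precipitated, and the released mRNA was sequenced. Both groups come from that overexpressing line and are labelled by antibody, FLAG or IgG, the latter being the background of the method. The protocol describes the precipitation with anti-Flag antibody only, so the handling of the IgG sample is known from its label alone. Each group had 1 library, the labels do not say whether the line is 1 clone, and the input RNA was not analysed here, so ratios were not set against RNA levels in the cells.

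Selenocysteine is inserted at UGA codons, which otherwise stop translation. The insertion needs a hairpin in the mRNA's 3′ untranslated region, the SECIS element, together with the SECIS-binding protein SECISBP2, the elongation factor EEFSEC and a dedicated tRNA. When selenium is scarce, mRNAs such as GPX1 and SEPW1 are known to be lost through nonsense-mediated decay, while GPX4 and TXNRD1 are largely kept. In kidney and other tissues the family serves peroxide removal, thioredoxin reduction and protein folding in the endoplasmic reticulum.

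In total 5498124 counts were assigned to genes after Flag and 3412864 after IgG precipitation. Mitochondrially encoded RNAs made up 33% of Flag counts and 8.93% of IgG counts, and the 10 most abundant genes 42.8% and 52.8%. MEX3A mRNA, in which transgene and endogenous reads were not told apart, reached 103 counts with Flag and 5 with IgG. That is a 12.8-fold ratio (95% counting interval 5.31 to 40.2). Of 10 kidney epithelial markers 9 had at least 20 counts over both libraries, CDH6 being at 0 in both. The leukocyte markers PTPRC, CD3E and CD14 were at 0, while CD68 had 30 Flag and 13 IgG counts. Of the endothelial markers CDH5 and KDR were at 0 and VWF had 9 Flag and 0 IgG counts. Of the fibroblast markers DCN was at 0, PDGFRB had 4 and 2 counts and COL1A1 875 and 637.

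Selenoprotein mRNAs did not behave as a block in the Flag precipitate, and their spread was near that of all genes. With total counts, 15-Sep was 13.7-fold and SELK 4.97-fold higher than in IgG, and SEPHS2 and TXNRD1 lay near the middle of all genes. On that scale GPX4 and SEPN1 had nearly equal levels in both libraries, and GPX1 and SEPW1 were lower. Levels are in CPM, a gene's count scaled to a common library total, and ratios are Flag CPM over IgG CPM with an exact 95% interval that covers counting error only. A gene was called enriched when that interval lay wholly above 2 and depleted when wholly below 0.5. Of the 10 genes 9 had the required 20 counts over both libraries, 2 were enriched and 0 depleted, against 28.7% enriched and 1.32% depleted of 10811 genes. The share among these genes, 22.2%, is near that background.

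TMM scaling, which lowers every log2 ratio by 0.78, gave 1 enriched gene (15-Sep) and 2 depleted ones (SEPW1 and GPX1), against 12% and 6.12% of all genes. Median-of-ratios scaling called the same genes, against 11.7% and 6.24%. With TMM scaling 66.1% of all called genes were enriched, and 95.6% with total counts. The median log2 ratio of the 9 was 1.03, next to 0.95 over all genes. With 1 library in each group no difference has a replicate check, and every call compares these libraries only.

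**Figure D1:**
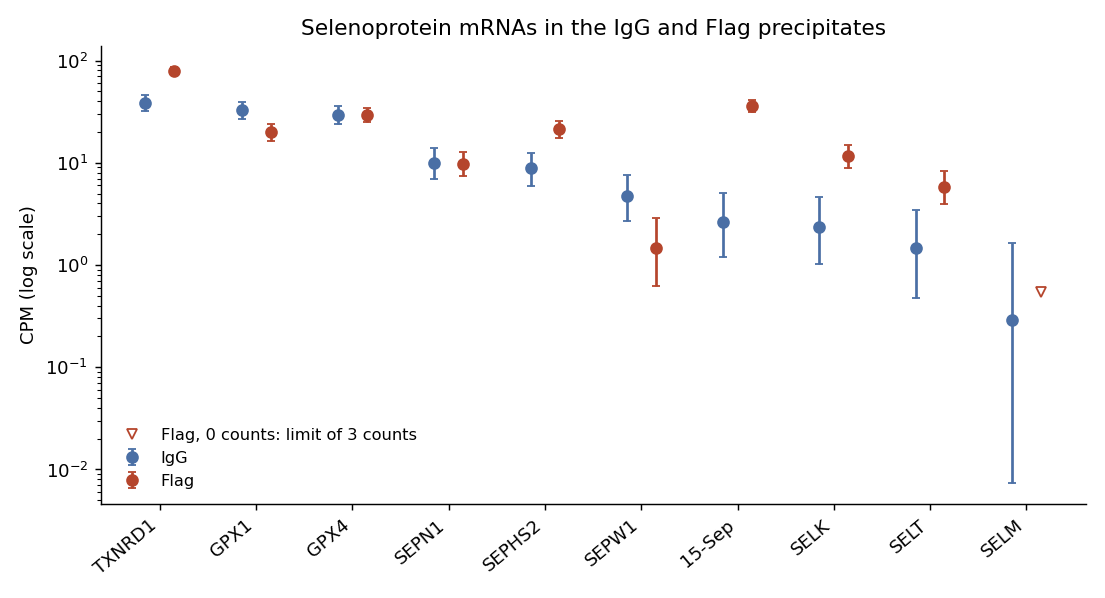
CPM (log axis) of the 10 genes in the IgG library (blue) and the Flag library (red), with exact Poisson 95% intervals that cover counting error only; the open triangle marks the limit that 0 counts of SELM allow in the Flag library, 0.546 CPM. 15-Sep, SELK, SELT, SEPHS2 and TXNRD1 stand higher in the Flag library and GPX1 in the IgG library, with intervals that do not meet, whereas GPX4 and SEPN1 overlap closely.

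15-Sep encodes a thioredoxin-like protein of the endoplasmic reticulum that binds the glycoprotein folding sensor UGGT1. It had 198 counts in the Flag library, or 36.0 CPM (31.2 to 41.4), and 9 counts in the IgG library, or 2.64 CPM (1.21 to 5.01). The intervals are far apart, and the ratio of 13.7 (7.05 to 30.3) was higher than that of 97.1% of all genes that entered. The deposited TPM, which divides by the length of the isoforms found, was 38.7 in the Flag and 1.69 in the IgG library, a ratio of 22.9. The tables gave this gene a length of 1107 bases in the Flag and 1732 bases in the IgG library, so the isoform mix assigned to it differed, with only 9 IgG reads behind the longer value.

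SELK and SELT encode small selenoproteins of the endoplasmic reticulum membrane. SELK takes part in the removal of misfolded proteins and in protein palmitoylation with ZDHHC6, and SELT has a thioredoxin-like fold. SELK had 64 counts with Flag (11.6 CPM, 8.96 to 14.9) and 8 with IgG (2.34 CPM, 1.01 to 4.62). Its ratio was 4.97 (2.37 to 12.0), and the call was lost with TMM scaling, at 2.90. SELT had 32 counts with Flag (5.82 CPM) and 5 with IgG (1.47 CPM), which gave 3.97 (1.54 to 13.1). Both stood higher in the Flag library, but the lower bound of SELT did not reach 2 and it was not called.

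SEPN1, which protects calcium handling and redox balance of the endoplasmic reticulum and is mutated in a congenital muscle disease, differed from these. It had 54 counts with Flag (9.82 CPM) and 34 with IgG (9.96 CPM), which gave 0.986 (0.630 to 1.56). The remaining gene of that compartment, SELM, a relative of 15-Sep, had 0 counts in the Flag library, which allows up to 0.546 CPM, and 1 count in the IgG library. It did not enter, and no ratio is given for it.

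Of the enzymes that remove peroxides or reduce thioredoxin, TXNRD1 was the most counted. TXNRD1, the cytosolic thioredoxin reductase, had 435 Flag counts (79.1 CPM, 71.9 to 86.9) and 132 IgG counts (38.7 CPM, 32.4 to 45.9). Its ratio of 2.05 (1.68 to 2.50) sat close to the median gene at 1.93. The gene EID3, which overlaps TXNRD1, had 13 and 8 counts. GPX4, the peroxidase that protects membrane lipids and restrains ferroptosis, had 162 counts with Flag (29.5 CPM) and 100 with IgG (29.3 CPM), which gave 1.01 (0.779 to 1.30). With total counts its level was thus equal in both libraries within counting error, and 22.3% of all genes had a lower ratio. The ratio was 0.586 with TMM scaling. By TPM it was 1.40, at lengths of 705 bases in the Flag and 911 in the IgG library.

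GPX1, the abundant cytosolic glutathione peroxidase, had 110 Flag counts (20.01 CPM, 16.4 to 24.1) and 111 IgG counts (32.5 CPM, 26.8 to 39.2). Its intervals did not meet, and it was 1.63-fold lower in the Flag library (ratio 0.615, 0.468 to 0.808). The tables gave it the same length of 1146 bases in both libraries, and the TPM ratio was 0.613. Its pseudogene GPX1P1 had 2 and 4 counts. SEPW1, a small thioredoxin-fold protein that is among the first to be lost when selenium is scarce, had 8 Flag counts (1.46 CPM) and 16 IgG counts (4.69 CPM). It was 3.22-fold lower (ratio 0.310, 0.115 to 0.769), and only 1.40% of all genes had a lower ratio. Both were called depleted with TMM scaling, at 0.359 for GPX1 and 0.181 for SEPW1.

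SEPHS2, which makes the selenophosphate from which selenocysteine is built and is itself a selenoprotein, had 117 Flag counts (21.3 CPM) and 30 IgG counts (8.79 CPM). Its ratio of 2.42 (1.61 to 3.75) was not called. Counting the direction alone, intervals lay wholly above 1 for 5 genes, namely 15-Sep, SELK, SELT, SEPHS2 and TXNRD1, against 58.1% of all genes. They lay wholly below 1 for GPX1 and SEPW1, against 8.99% of all genes. With TMM scaling the ratios of 5 of the 9 genes were above 1, and those of GPX4 (0.586) and SEPN1 (0.575) fell among the 4 below.

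**Figure D2:**
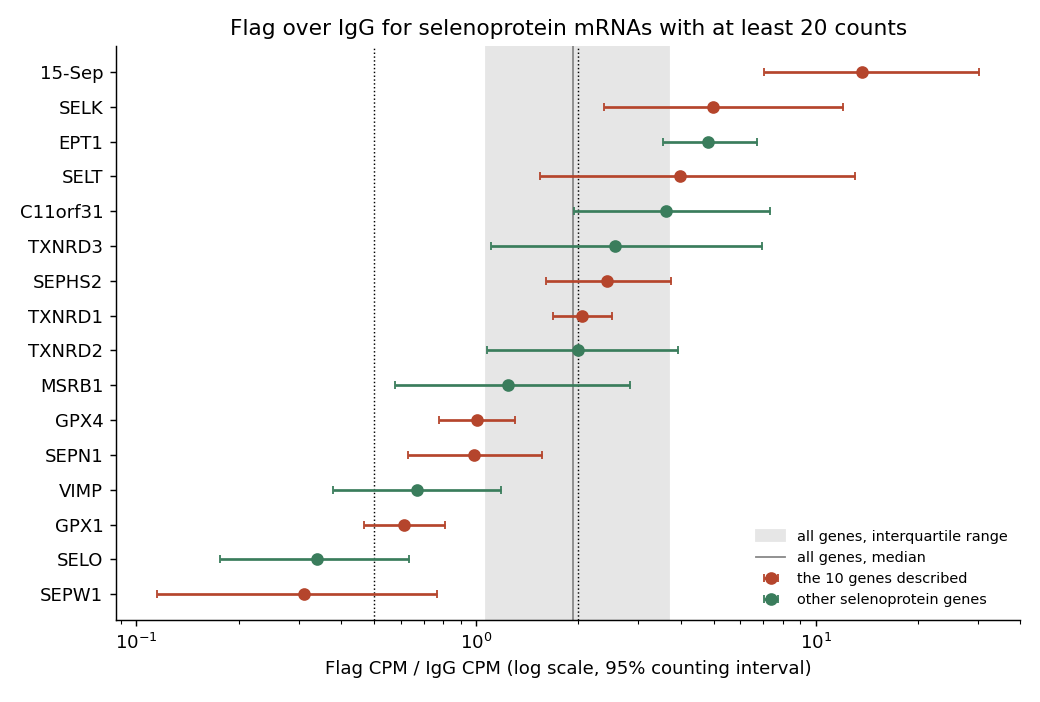
Flag over IgG ratio (log axis) with exact 95% counting intervals for the selenoprotein genes with at least 20 counts, the 9 described here in red and 7 others in green; the grey band spans the interquartile range of all 10811 genes, the grey line is their median and dotted lines mark the call limits of 0.5 and 2. 15-Sep, SELK, EPT1 and SELT have ratios above the band, and SEPW1, SELO, GPX1, VIMP, SEPN1 and GPX4 below it.

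Where 1 stands depends on the scaling of library totals, but the ratio of a pair of genes to each other does not. TPM, which also divides by length, can shift that pair ratio. SELK stood 2.43 times above TXNRD1 by counts (1.12 to 6.01), with TPM ratios of 3.08 and 2.08. Ratios of ratios from counts were formed for all 36 pairs of the 9 genes. They carry exact conditional 95% intervals for counting error and no p-value. The interval excluded 1 for 26 pairs and included it for 10. No such share was formed for pairs drawn from all genes, so this count is not particular to selenoproteins. The interquartile range of the 9 log2 ratios was -0.02 to 1.99, next to 0.10 to 1.88 over all genes. The ratio of 15-Sep was 22.2 times that of GPX1 (10.7 to 51.5), 13.6 times that of GPX4 (6.57 to 31.4) and 6.68 times that of TXNRD1 (3.31 to 15.2). It could not be told from those of SELK (2.75, 0.880 to 8.37) and SELT (3.44, 0.843 to 12.2). TXNRD1 and SEPHS2 were not resolved either, with SEPHS2 at 1.18 times TXNRD1 (0.747 to 1.92). The peroxidases differed, GPX4 lying 1.63 times above GPX1 (1.12 to 2.39), while GPX4 and SEPN1 did not (1.02, 0.599 to 1.72).

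The make-up of the selenoprotein reads differed between the precipitates. Together the 10 genes held 1180 counts with Flag and 446 with IgG, which gave 1.64 (1.47 to 1.84). 15-Sep supplied 16.8% of these counts in the Flag library (14.7 to 19.0, exact binomial interval) and 2.02% in the IgG library (0.927 to 3.80). The share of GPX1 was 9.32% (7.72 to 11.1) in the Flag and 24.9% (20.9 to 29.2) in the IgG library. GPX4 supplied 13.7% (11.8 to 15.8) and 22.4% (18.6 to 26.6). TXNRD1 was the largest contributor to both, with 36.9% and 29.6%.

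**Figure D3:**
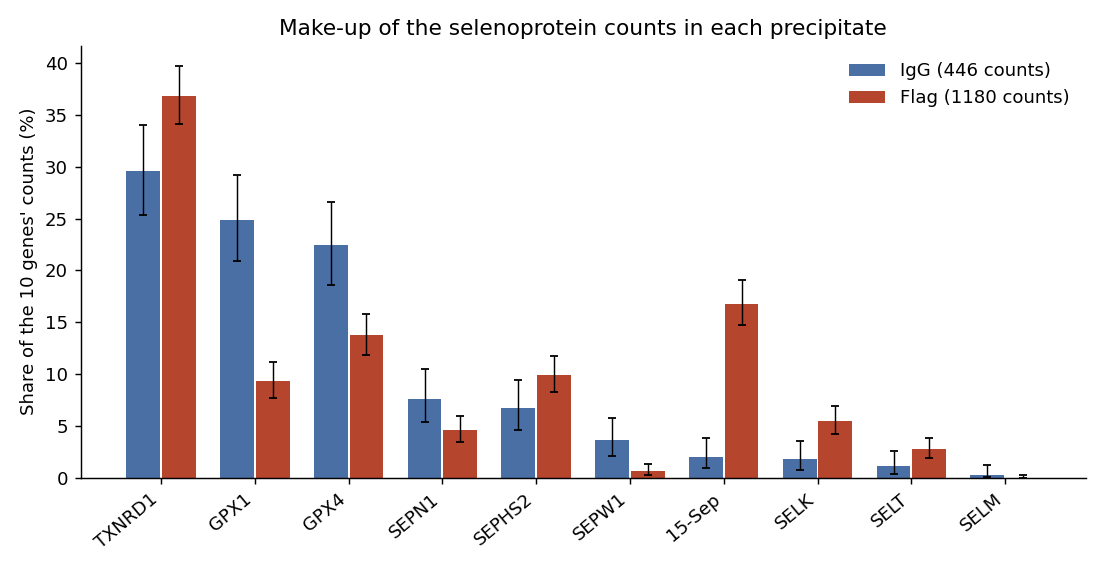
Share of the 10 genes' summed counts (%) that each gene supplied in the IgG library (blue, 446 counts) and the Flag library (red, 1180 counts), with exact binomial 95% intervals. 15-Sep supplied 2.02% of IgG and 16.8% of Flag counts, and GPX1 24.9% and 9.32%.

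Levels per length, in TPM, ordered the genes differently in each library. In the IgG library GPX4 came first at 40.2 TPM, followed by GPX1 at 33.7 and TXNRD1 at 19.4, and 15-Sep was eighth at 1.69. GPX4 and GPX1 were not apart there (1.20 times per effective length, 0.903 to 1.58), whereas GPX1 exceeded TXNRD1 (1.74, 1.34 to 2.25) and TXNRD1 exceeded SEPW1 (2.84, 1.69 to 5.12). From SEPW1 down, all neighbours, from 6.82 to 0.94 TPM, overlapped. In the Flag library GPX4 was again first at 56.1 TPM, above TXNRD1 at 40.4 (1.39, 1.15 to 1.67). TXNRD1 and 15-Sep, which had moved up to 38.7 TPM, were not apart (1.04, 0.879 to 1.24). GPX1 followed at 20.6, SELK at 14.8, SEPHS2 at 11.3, SELT at 4.96, SEPN1 at 3.38 and SEPW1 at 2.57 TPM. Of these, SELK and SEPHS2, SELT and SEPN1, and SEPN1 and SEPW1 were neighbours whose intervals included equality.

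Over all genes the ratio differed with length. Genes up to 1000 bases had a median log2 ratio of 0.46, those from 1000 to 2000 bases 0.77, from 2000 to 4000 bases 1.10 and longer ones 1.28. In the shortest class SELK lay above the class median and GPX4 and SEPW1 below it. From 1000 to 2000 bases 15-Sep, SELT and SEPHS2 lay above and GPX1 below. TXNRD1 (log2 ratio 1.03) and SEPN1 (-0.02) lay below the median of their longer class. Genes of similar mean length thus stood on both sides, and the part that length plays was not tested. Length here is the mean of both libraries, which can differ. SELK had 963 bases in the Flag and 672 in the IgG library, GPX4 705 and 911, and SEPW1 746 and 870.

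**Figure D4:**
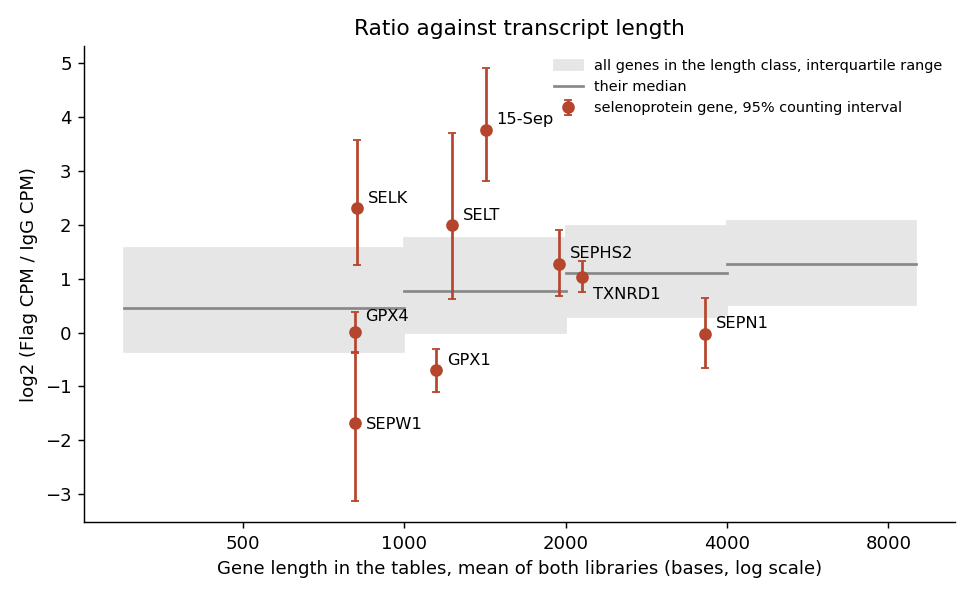
Log2 ratio of Flag to IgG CPM against gene length in bases (log axis, mean of both libraries) for the 9 genes, with 95% counting intervals; grey bands show the interquartile range and grey lines the median of all genes in each of 4 length classes, the outer classes being open-ended. SELK, GPX4 and SEPW1 have nearly the same mean length, though not the same length within each library, and log2 ratios of 2.31, 0.01 and -1.69.

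The other selenoprotein genes also lay on both sides of 1. Of 15, 7 entered, 1 was enriched (14.3%, against 28.7% of all genes) and 0 depleted (1.32% of all genes), and their median log2 ratio was 1.00 (0.95 over all genes). With TMM scaling 1 was enriched and 1 depleted, where all genes gave 12% and 6.12%. The related lists below are to be read against the same shares. EPT1, which encodes a phospholipid synthesis enzyme, was 4.82-fold higher (3.54 to 6.70, 357 against 46 counts). Its TPM ratio was 2.17, at lengths of 7446 bases in the Flag and 3446 in the IgG library. SELO, a mitochondrial protein that adds AMP to other proteins, had 17 Flag and 31 IgG counts and a ratio of 0.340 (0.177 to 0.634), and was the one depleted with TMM scaling. C11orf31 (SELENOH), a nucleolar redox protein, had 70 and 12 counts and a ratio of 3.62 (1.95 to 7.34), just short of a call.

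The mitochondrial and testis-type thioredoxin reductases TXNRD2 (2.0, 1.08 to 3.94) and TXNRD3 (2.57, 1.10 to 6.95) were not apart from TXNRD1, at 0.975 times (0.506 to 1.99) and 1.26 times (0.523 to 3.48) its ratio. VIMP, which works with SELK in the removal of misfolded proteins, had a ratio of 0.668 (0.378 to 1.19), and the methionine sulfoxide reductase gene MSRB1 one of 1.24 (0.577 to 2.84). GPX2, with 8 Flag counts and 1 IgG count, and GPX3, with 5 and 10, did not enter. The deiodinase genes DIO1, DIO2 and DIO3, GPX6, SELV and the plasma selenium carrier SEPP1 were at 0 in both libraries.

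The machinery that inserts selenocysteine had 3 enriched and 0 depleted genes of 13 that entered (23.1% enriched; TMM: 3 and 1; median-of-ratios: 2 and 1, without SECISBP2), with a median log2 ratio of 1.10. The enriched genes were both SECIS-binding protein genes and a paralog of SEPHS2. SECISBP2L was 7.24-fold higher (5.68 to 9.36, 828 against 71 counts), SECISBP2 4.73-fold (3.44 to 6.67, 328 against 43) and SEPHS1 4.86-fold (3.67 to 6.56, 431 against 55). At the other end stood NCL, nucleolin, which can bind SECIS elements, with a ratio of 0.519 (0.493 to 0.546), depleted with TMM scaling. The ribosomal protein gene RPL30 (0.831), which also binds SECIS elements and had fractional counts, and the serine-tRNA synthetase gene SARS (1.09) were next. EEFSEC had 6 and 11 counts and did not enter.

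Relatives that hold cysteine in place of selenocysteine, with proteins of related folds, had 2 enriched and 0 depleted genes of 7 (28.6% enriched, next to 28.7% of all genes; TMM: 1 and 0; median-of-ratios: 0 and 0), and their median was 1.34. They were GPX8 (5.12-fold, 2.80 to 10.2), a peroxidase of the endoplasmic reticulum, and MSRB3 (4.97-fold, 3.45 to 7.37), a methionine sulfoxide reductase, GPX8 not called with TMM and neither called with median-of-ratios scaling. CHPT1 (0.582, 0.268 to 1.26), FAM213A (2.15, 1.40 to 3.40) and TXNDC12 (2.53, 1.77 to 3.71) had the lowest upper bounds, CHPT1 and TXNDC12 with fractional counts.

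Of 24 genes of the thioredoxin and glutathione systems, 4 passed as enriched and 0 as depleted (16.7% enriched; TMM: 2 and 1). Their median log2 ratio of 0.45 was below the 0.95 of all genes (-0.33 and 0.17 with TMM scaling), and 18 of the 24 lay below the median gene. GCLM, the modifier subunit of the first enzyme of glutathione synthesis, was 8.07-fold higher (4.25 to 17.2). Glutathione reductase, GSR, was 6.57-fold higher (4.24 to 10.7) and the mitochondrial superoxide dismutase gene SOD2 3.10-fold (2.72 to 3.54), the last not called with TMM scaling. The peroxiredoxin genes PRDX4 (0.392, 0.174 to 0.851), PRDX1 (0.696, 0.551 to 0.879) and PRDX3 (0.654, 0.471 to 0.909) had the lowest upper bounds, and PRDX4 was depleted with TMM scaling. TXN, the thioredoxin that TXNRD1 reduces, had a ratio of 1.07 (0.686 to 1.70).

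NRF2, encoded by NFE2L2, is the oxidative stress regulator that drives TXNRD1. Of 20 genes of its pathway 4 passed as enriched and 0 as depleted (20% enriched; TMM: 1 and 2), at a median of 0.56, or -0.22 with TMM scaling. MAFG, which encodes a DNA-binding partner of NRF2, had 2947 Flag and 69 IgG counts and was 26.5-fold higher (20.9 to 34.2). The cystine transporter gene SLC7A11 was 4.01-fold (2.69 to 6.21) and the pentose phosphate enzyme gene TALDO1 3.69-fold higher (2.65 to 5.28), neither called with TMM scaling. EPHX1 (0.248, 0.106 to 0.535) and the ferritin genes FTH1 (0.509, 0.463 to 0.560, fractional counts) and FTL (0.773, 0.667 to 0.896) were at the low end, and EPHX1 and FTH1 were depleted with TMM scaling. NFE2L2 itself had a ratio of 1.46 (1.06 to 2.02) and its inhibitor KEAP1 1.14 (0.772 to 1.70).

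Ferroptosis is the form of cell death that GPX4 prevents. Of 15 such genes 2 passed as enriched and 0 as depleted (13.3% enriched; TMM: 0 and 1), at a median of 0.37, or -0.41 with TMM scaling. ACSL4, which loads polyunsaturated fatty acids into lipids, was 4.10-fold higher (3.39 to 4.99) and the ferritin receptor gene NCOA4 3.19-fold (2.58 to 3.98). By TPM the ratios were 1.75 for ACSL4 and 4.16 for NCOA4. ACSL4 had lengths of 4874 bases in the Flag and 2185 in the IgG library. CBS, of cysteine synthesis, had a ratio of 0.606 (0.470 to 0.782) and was depleted with TMM scaling, and POR (0.801) and TFRC (0.874) were next.

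Partners of selenoproteins in the endoplasmic reticulum had 6 enriched and 0 depleted genes of 19 (31.6% enriched, next to 28.7% of all genes; TMM: 3 and 0), at a median of 0.98. The chaperone gene CANX was 7.22-fold higher (6.51 to 8.03), the thiol oxidase gene ERO1L 6.04-fold (4.21 to 8.92, fractional counts) and the disulfide isomerase gene PDIA3 4.28-fold (3.53 to 5.23, fractional counts). UGGT1, the partner of 15-Sep, was enriched as well (2.67, 2.28 to 3.12), though not with TMM scaling. The ratio of 15-Sep was 5.12 times that of UGGT1 (2.58 to 11.6). By TPM the ratio of UGGT1 was 1.66, at lengths of 4761 bases in the Flag and 3036 in the IgG library. ZDHHC6, the partner of SELK, had a ratio of 1.06 (0.701 to 1.63). ITPR3 (0.796), CALR (0.805) and P4HB (0.927) stood lowest by upper bound and passed neither limit, ITPR3 and P4HB with fractional counts.

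**Figure D5:**
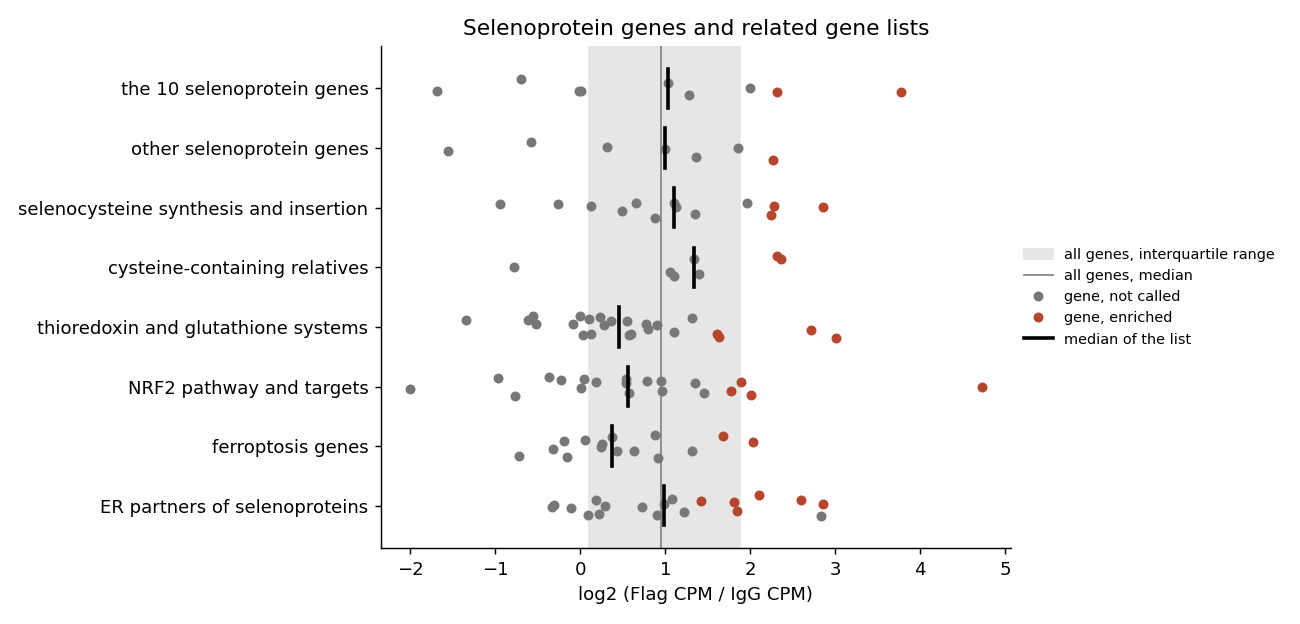
Log2 ratio of Flag to IgG CPM for each gene with at least 20 counts (points, spread vertically for legibility) in the 10 selenoprotein genes and the 7 related lists, enriched genes in red; black bars are list medians, the grey line and band the median (0.95) and interquartile range of all genes. The medians of the thioredoxin and glutathione (0.45), NRF2 (0.56) and ferroptosis (0.37) lists lie left of the grey line, and the 9 of the 10 selenoprotein genes with enough counts span -1.69 to 3.77.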

How the data were processed

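One table for each of the IgG and Flag precipitates was used; input RNA was not analysed here. The expected counts, estimated reads per gene, and the TPM, scaled to effective length, were deposited by the authors in RSEM's layout, per the file headers. Lengths and effective lengths are the authors' columns too, weighted over isoforms. The submitters' processing notes name STAR, RSEM, hg19 and GRCh37 without roles; read filters and strand were not given in the sources used here. Expected counts were rounded and divided by each library's total (CPM). A sum of at least 20 counts was required. Ratios carry exact Clopper-Pearson 95% intervals, and 0 counts are given the limit of 3 counts. Reads are not independent molecules, so intervals cover counting error only, and no p-value was computed. On simulated counts for 8256 genes with 8-fold changes in 200, all 200 were called in the right direction, 0 others were called, and 95.4% of intervals held the true ratio. The simulation took only genes counted well above the required 20, and drew the unchanged ones at equal levels with Poisson noise. It does not show how calls near the limits, or under noise beyond counting error, would fare. Alternatives used TMM (edgeR 4.0.16) and median-of-ratios (DESeq2 1.42.0) scaling, other filters, thresholds and TPM. Names and overlaps come from RefSeq's GRCh38.p14 table, another build, so no coordinates are given. All 10 genes had whole counts, within 0.01, in both libraries. Without a stated strand setting, antisense reads cannot be told apart.

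Members and lists were chosen with earlier results of these data known. Besides the members, the text names the other selenoprotein genes and, in each list, up to 3 enriched genes with the highest lower bounds and 3 genes with the lowest upper bounds. EEFSEC, TXN, NFE2L2, KEAP1, UGGT1, ZDHHC6, GPX2 and GPX3 are named for their role.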

Additional observations from a re-analysis of the deposited data

How the results depend on the processing

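No paired analysis was possible because each group has 1 library. 15-Sep stayed enriched under all 14 alternatives, with ratios from 7.90 to 21.7. The count filters, whole counts, the 1.5-fold limit and pseudogene sums could not remove its call. Of the 9 genes, 1 was enriched with TMM (12% of all genes) and with median-of-ratios scaling (11.7%). The same number was enriched with restricted totals (20.3% of all genes), which leave out mitochondrial RNAs and the 10 largest genes. At 4-fold 1 was enriched (8.55% of all genes), and with a 99% interval 1 (23.5%). At 100 counts 5 of the 9 entered and 1 was enriched (37.9%), SELK having too few counts to enter. TPM calls rest on the bare ratio above 2 or below 0.5, with no interval, a looser rule than the one used elsewhere. By that rule 4 genes were enriched with a pseudocount of 1 (37.7% of all genes) and 5 with 0.1 (44.2%). Protein-coding totals and the 1.5-fold limit each gave 5 (40% of all genes in both). Depleted genes numbered 2 with TMM (6.12% of all genes) and median-of-ratios scaling (6.24%), and 1 with TPM (4.96% and 6.59%). SELK lost its call at 2.90 (TMM), 2.87 (median-of-ratios) and 3.95 (restricted totals), and at 4.97 with 4-fold or 99% limits. GPX1 became depleted at 0.359 and 0.356 and SEPW1 at 0.181 and 0.180 (0.456 and 0.386 with TPM). TXNRD1 became enriched at 2.03 and 2.08 (TPM), 2.70 (protein-coding) and 2.05 (1.5-fold), SEPHS2 at 2.13 (TPM, 0.1), 3.20 and 2.42, and SELT at 2.30, 2.99, 5.25 and 3.97. Over all genes, enriched and depleted counts were 1293 and 662 (TMM), 1269 and 675 (median-of-ratios), 924 and 24 (4-fold) and 4780 and 712 (TPM, 0.1). Depleted genes alone changed by over 1.5 times to 268 (restricted totals), 218 (1 count), 536 (TPM, 1), 75 (protein-coding) and 298 (1.5-fold). At 1 count 17302 genes entered, and the share depleted was 1.26%, next to 1.32% as reported. Scaling turned the median of the thioredoxin and glutathione list to -0.33 (TMM) and -0.34, that of the NRF2 list to -0.22 and -0.23, and that of the ferroptosis list to -0.41 and -0.42. Scaling, filters and limits enter these calls directly, and TPM also brings in the lengths assigned to isoforms. Why each value moved was not tested. SELT, SELK and 15-Sep rest on 5 to 9 IgG counts, and SEPW1 on 8 Flag and 16 IgG counts. These low counts make their intervals wide.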

Other observations

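Selenoprotein genes could be set beside relatives without selenocysteine, in pairs chosen after their values were seen, and the pairs went both ways. The cysteine peroxidase gene GPX8 had a ratio 5.09 times that of GPX4 (2.61 to 10.7) and 8.32 times that of GPX1 (4.23 to 17.5). By TPM the ratios were closer, at 2.37 for GPX8, 1.40 for GPX4 and 0.613 for GPX1. GPX8 had lengths of 2204 bases in the Flag and 1124 in the IgG library. MSRB3 had 4 times the ratio of the selenoprotein gene MSRB1 (1.59 to 9.50), while MSRB2 was not apart from it (1.67, 0.521 to 5.39). By TPM MSRB3 stood at 4.01, MSRB1 at 1.24 and MSRB2 at 0.583, which put MSRB2 below MSRB1. SEPHS1 had 2.01 times the ratio of SEPHS2 (1.18 to 3.35). In the phospholipid synthesis family the selenoprotein gene EPT1 had 8.28 times the ratio of CHPT1 (3.54 to 19.2). It was not apart from CEPT1 (1.83, 0.687 to 4.33). By TPM the ratio was 2.17 for EPT1, 0.596 for CHPT1 and 6.12 for CEPT1, the last with 8 IgG counts. CHPT1 and CEPT1 had fractional counts, and the intervals cover counting error only. The SECIS-binding protein genes SECISBP2L and SECISBP2 were not apart from each other (1.53, 0.999 to 2.32). Within glutathione synthesis GCLM had 5.33 times the ratio of GCLC (2.06 to 14.2), its partner subunit gene.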
